A study of Sus scrofa with 32 samples.

Results

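TRDC, RHEX, SAMSN1, GATA3 and SOX13 were followed as genes of the γδ T cell lineage, 5 of the 25880 genes counted. Their RNA was measured in the 22584 pig cells with a CD3E transcript among 48629 cells that passed a lower limit on transcripts, a lower limit of 550 genes and an upper limit on the mitochondrial share of transcripts. The genes were chosen by their measured levels in cells with and without CD2, in ileum and in blood, so those contrasts are given as values with no test. The genes themselves were tested only in contrasts that the rule did not use. These were γδ against αβ T cells, and ileum with against ileum without Peyer's patches. Other genes of the same cells were tested in the CD2 and tissue contrasts too. The gene lists were drawn up with earlier results of these data known, so those tests are not independent of that choice.

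Each transcript was counted by its unique molecular identifier (UMI), which marks 1 captured RNA molecule, and CPM is the UMIs of a gene in every 1000000 UMIs of the cells summed. The cells came from 2 untreated mixed-breed pigs of 7 weeks, pig 1 labelled female and pig 2 labelled male. From each pig, ileal tissue with Peyer's patches (PP), ileal tissue without Peyer's patches (non-PP), a cross section of whole ileum, and peripheral blood mononuclear cells (PBMC) gave 1 library each, so that by the labels every group holds n = 2 pigs. Epithelium, lamina propria and submucosa were pooled before live lymphocytes were enriched, so the position of an ileal cell within the wall is not known.

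γδ T cells carry a T cell receptor built from γ and δ chains in place of the α and β chains of CD4 and CD8 αβ T cells, and they are unusually abundant in the blood and gut of pigs. In this species they are divided by CD2, an adhesion receptor that pig αβ T cells carry and that part of the γδ T cells lack. TRDC encodes the constant region of the δ chain. RHEX encodes a membrane adaptor known from erythropoietin signalling in red cell precursors, and SAMSN1 encodes a cytoplasmic adaptor with SH3 and SAM domains that dampens signalling in lymphocytes. GATA3 and SOX13 are transcription factors: GATA3 acts in T cell commitment and type 2 helper cells, and SOX13 in the development of γδ T cells in mice.

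The files give the genes as TRDC (ENSSSCG00000022512), RHEX (ENSSSCG00000015638), SAMSN1 (ENSSSCG00000038062), GATA3 (ENSSSCG00000011125) and SOX13 (ENSSSCG00000015277). On Sscrofa11.1, the build of the counts, RefSeq places SAMSN1 on chromosome 13 from 179431494 to 179509359, SOX13 on chromosome 9 from 64745762 to 64780942, and GATA3 on chromosome 10 from 63367684 to 63397977. TRDC and RHEX had no entry under these symbols.

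The libraries held 21134542 to 40111934 UMIs and 3776 to 7704 cells after the quality limits, with 2.65 to 3.76% of the cells scored as doublets and kept. The 28 pairs of libraries shared 21 to 80 cell barcodes, 0.633 to 1.31 times the number expected from independent draws of the barcode list. The library labelled whole ileum pig 1 held 207 CPM of 5 Y-linked genes, against 0 to 0.224 CPM in the other libraries of pig 1. The libraries of pig 2 held 119 to 226 CPM. The library labelled whole ileum pig 1 thus stands at the level of the male, which goes against its label. It is part of the ileal sums of pig 1, so the ileal sums of pigs 1 and 2 may not come from separate animals. Ileal values are therefore given with this library and, where they moved, without it. Among CD3E+ CD2- cells, 0.857 to 47.1% carried UMIs of 2 or more of 5 B cell markers (CD79A, CD79B, MS4A1 and PAX5 among them). The shares were lowest in non-PP, at 0.857 and 2.61%, and 29.4 to 47.1% in PP and whole ileum, and in TRDC+ CD2- cells the share was 0 to 21.97%. Results in these gates are also given without such cells where that moved them.

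The CD3E+ cells were divided by TRDC and CD2. TRDC+ cells without CD2 (TRDC+ CD2-) numbered 1096 in ileum and 702 in blood, and TRDC+ CD2+ cells 3750 and 539. Cells without TRDC but with a CD4 or CD8B UMI served as the αβ T cell comparison, 3185 in ileum and 1551 in blood with CD2 and 542 and 236 without it. The defining T cell markers CD3D, CD3G, CD247, CD5 and CD6 were all detected in both TRDC+ gates of every library, and 75.7 to 97.4% of the cells there held UMIs of at least 2 of them. A cell counts as CD2- when no CD2 UMI was caught, so it may still express CD2 at a level below detection. Since pig αβ T cells carry CD2, the 542 ileal and 236 blood αβ cells without it may be such cells. TRDC+ CD2+ cells outnumber TRDC+ CD2- cells in ileum (3750 and 1096) but not in blood (539 and 702). Missed CD2+ cells can thus be a larger part of the ileal TRDC+ CD2- gate. That part was not measured, and it bears on each comparison of ileum with blood in this gate.

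A high level on both sides of the CD2 divide was built into the TRDC+ gates, which require a TRDC UMI. TRDC is therefore described only by its order between gates and tissues. In TRDC+ CD2- cells it stood at 2092 CPM in the lowest, 2379 in the median and 2987 in the highest of the 6 ileal libraries, and at 2329 and 2499 CPM in blood of pigs 1 and 2. In TRDC+ CD2+ cells the ileal values were 3053, 3285 and 3378 CPM and the blood values 1540 and 1821 CPM. All 6 ileal values with CD2 lay above all 6 without it, and both blood values with CD2 lay below both without it.

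Per pig, the level in TRDC+ CD2- cells relative to TRDC+ CD2+ cells was −0.37 ± 0.042 (SD, n = 2) on the log2 scale in ileum and 0.53 ± 0.099 in blood. Every cell was also thinned to the same number of UMIs, the lowest that the quality limits allow, and gated again. The blood value was then −0.079, so its direction did not hold in that setting, which also moves cells between gates. The required TRDC UMI adds more CPM to a shallow cell. Median depth in blood was 2190 and 2338 UMIs in TRDC+ CD2- cells, against 4482.5 and 3687 in TRDC+ CD2+ cells. In cells of at least 2500 UMIs the blood value kept its positive sign. CD3E- B cells, which should lack TRDC, held 9.23 to 32.8 CPM, a low level beside these. Yet 2.67 to 13.04% of them had a TRDC UMI at median depths of 2264 to 4303 UMIs. Since 1 UMI meets the gate, free RNA can place cells without TRDC expression in it. How many such cells the TRDC+ gates hold was not measured. In the TRDC+ gates 7.09 to 21.97% of cells rested on a single TRDC UMI, while the median cell held 5 to 11.

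Among all CD3E+ cells, TRDC divided ileum from blood. In blood, 31.1% and 52.0% of CD3E+ CD2- cells had a TRDC UMI, against 12.7% and 10.2% of CD3E+ CD2+ cells. In ileum the shares overlapped, at 20.5 to 39.7% without CD2 and 23.2 to 38.1% with it. As a level, TRDC in CD3E+ CD2- relative to CD3E+ CD2+ cells was 1.93 ± 0.84 (SD, n = 2) on the log2 scale in blood and −0.74 ± 0.11 in ileum. The ileal value was −0.15 without cells carrying 2 or more B cell markers.

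Of the 4 detected genes, RHEX lay furthest apart between CD2- and CD2+ γδ T cells. In TRDC+ CD2- cells it was 453.5 CPM in PP pig 1, 674 in PP pig 2, 345 in non-PP pig 1, 435 in non-PP pig 2, 489 in whole ileum pig 1 and 465 in whole ileum pig 2. In blood it was 1140 and 1174 CPM. In TRDC+ CD2+ cells it was 7.33 CPM in the lowest, 18.2 in the median and 45.2 in the highest ileal library, and 51.5 and 80.5 CPM in blood. Neither pair of gates overlapped in any tissue, and within each CD2 gate both blood values lay above all 6 ileal values.

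The ratio of TRDC+ CD2- to TRDC+ CD2+ cells was 23.8-fold in ileum, 4.57 ± 0.53 (SD, n = 2) on the log2 scale, and 18.0-fold in blood, 4.17 ± 0.43. Without the library labelled whole ileum pig 1 the ileal log2 ratio was 4.36. Ileum relative to blood was −1.30 ± 0.20 in TRDC+ CD2- cells and −1.70 ± 0.75 in TRDC+ CD2+ cells, so RHEX was lower in ileum in both pigs and in both gates. The part that missed CD2+ cells have in the first of these values was not tested. With doublets removed, the blood CD2 ratio rose, and RHEX for ileum over blood in all CD3E+ CD2+ cells turned positive. The part of doublets in the second value was not tested.

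**Figure D1:**
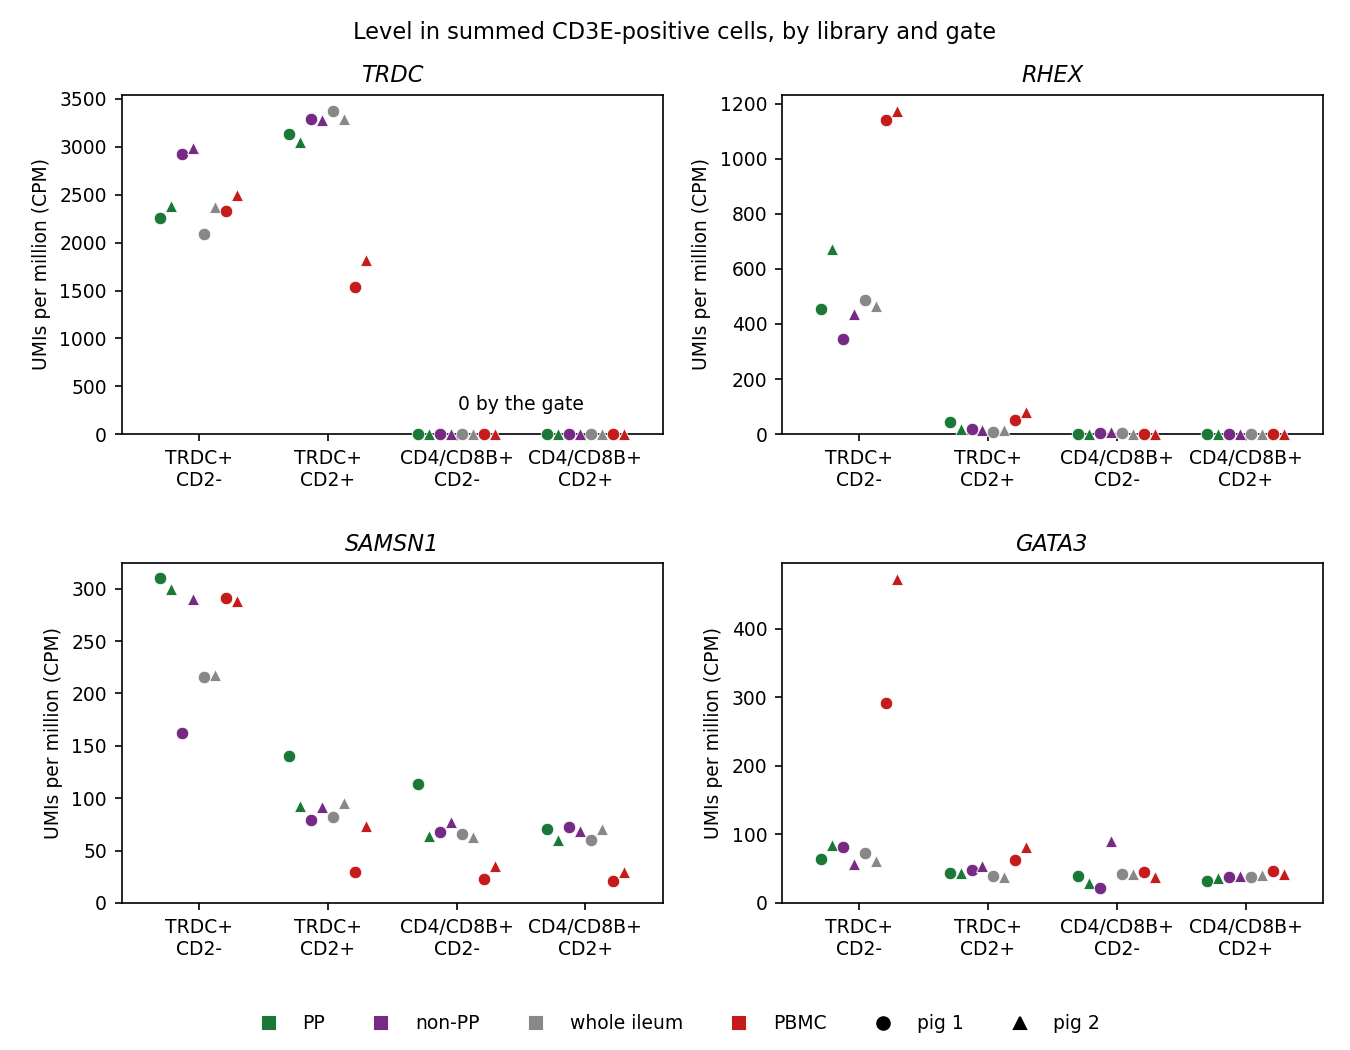
CPM of TRDC, RHEX, SAMSN1 and GATA3 in the summed cells of each gate (x axis), 1 point per library, colours for tissue and shapes for pig. RHEX stands at 345 to 1174 CPM in TRDC+ CD2- cells and at 80.5 CPM or less in the TRDC+ CD2+ and both CD4 or CD8B+ gates, and GATA3 is highest in TRDC+ CD2- cells of blood.

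The share of cells with a RHEX UMI followed the same order of gates and tissues. In ileum it was 16.03, 40.1 and 46.5% of TRDC+ CD2- cells (lowest, median and highest library), against 0.63, 2.14 and 4.68% of TRDC+ CD2+ cells. In blood it was 75.1% (95% Clopper-Pearson interval 70.0 to 79.7) and 82.9% (78.8 to 86.6) of TRDC+ CD2- cells, against 7.52% (4.82 to 11.06) and 11.6% (7.78 to 16.4) of TRDC+ CD2+ cells. These intervals cover counting error only. In B cells the share was 0 to 1.14%, and blood B cells had median depths of 3422 and 4303 UMIs against 2190 and 2338 in blood TRDC+ CD2- cells. The non-PP library of pig 1 was lowest in ileum, at 16.03% (11.8 to 21.0), although its 345 CPM lay nearer to the rest.

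After thinning each cell to that lowest number of UMIs, RHEX was found in 13.7, 31.6 and 37.3% of ileal and 66.0 and 73.0% of blood TRDC+ CD2- cells. With a single TRDC UMI, 3.57 to 27.6% of ileal TRDC+ CD2- cells held RHEX, and with 3 or more TRDC UMIs 17.2 to 51.05% did. In blood the shares were 43.3 and 51.9% with 1 TRDC UMI and 78.0 and 85.2% with 3 or more. Seen from the other side, cells with 2 or more RHEX UMIs made up 0.864 to 1.56% of ileal and 4.33 and 5.09% of blood cells. Of these, 90.2 to 98.3% had TRDC, 86.0 to 98.4% had CD3E, 4.65 to 27.9% had CD2 and 1.79 to 5.26% had CD4 or CD8B. Cells with 2 or more RHEX UMIs were thus mostly CD3E+ TRDC+ cells without a CD2 UMI in every library. At 1 or more RHEX UMIs the shares were weaker. TRDC was then seen in 75.6 to 88.4% of the cells, CD3E in 79.5 to 97.4% and CD2 in 9.92 to 36.4%. CD3E- B cells made up 0 to 14.96% of them.

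**Figure D2:**
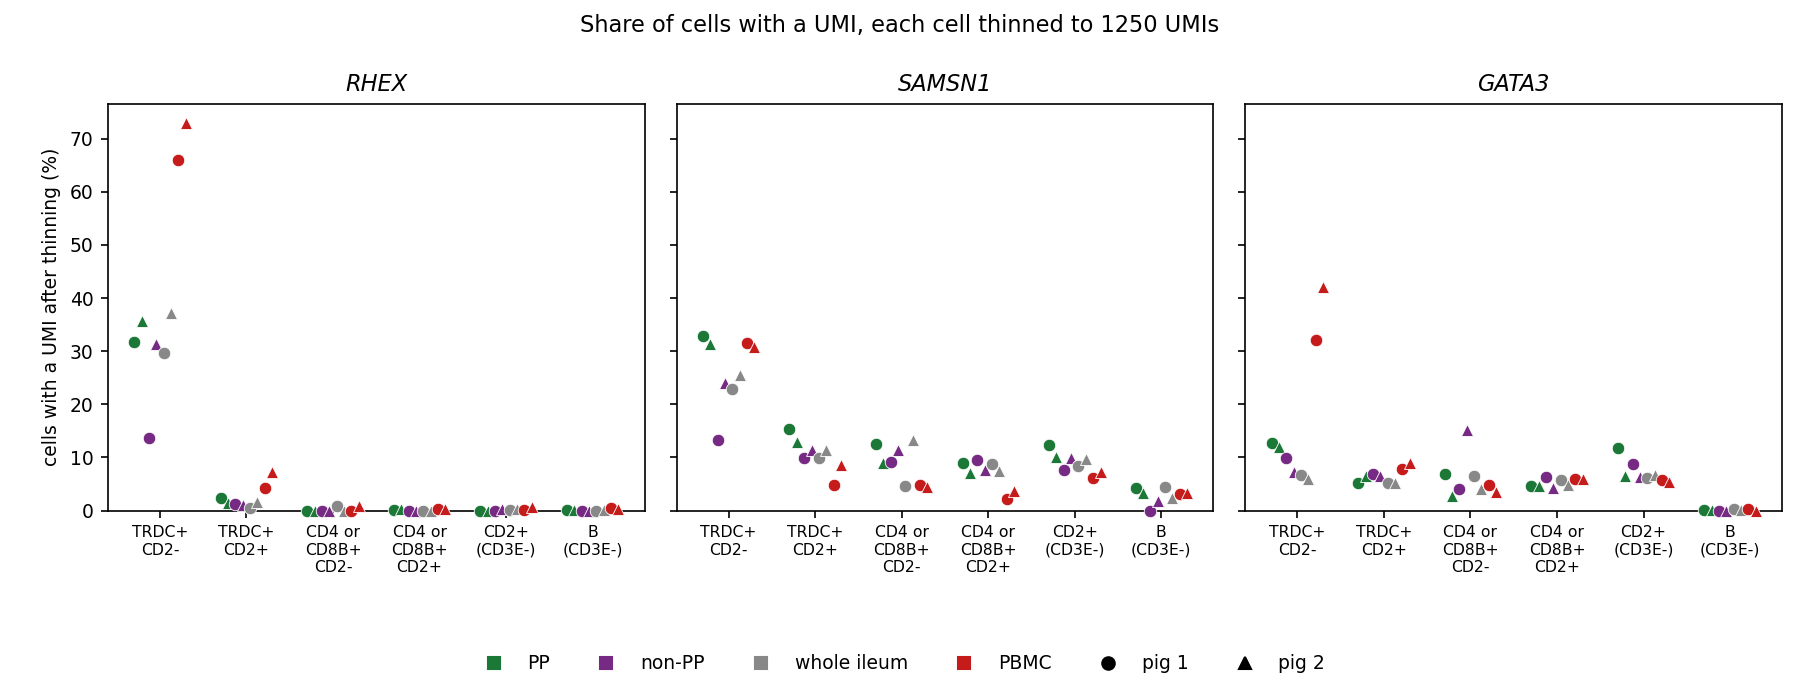
Percent of cells with a UMI of RHEX, SAMSN1 or GATA3 after each cell was thinned to the same number of UMIs, by gate (x axis), with 1 point per library. CD3E- cells with CD2 and CD3E- B cells are given for comparison. RHEX reaches 66.0 and 73.0% in TRDC+ CD2- cells of blood and 7.30% or less outside the TRDC+ CD2- gate.

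SAMSN1 was also higher without CD2, but against a broad level in other lymphocytes. TRDC+ CD2- cells held 162, 254 and 310 CPM in the lowest, median and highest ileal library, and 291 and 289 CPM in blood. TRDC+ CD2+ cells held 79.7, 92.2 and 140 CPM in ileum and 29.8 and 73.6 CPM in blood. Ileal and blood values overlapped without CD2, and with CD2 both blood values lay below all 6 ileal values.

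The log2 ratio of TRDC+ CD2- to TRDC+ CD2+ cells was 1.39 ± 0.17 (SD, n = 2) in ileum and 2.63 ± 0.93 in blood, and 1.37 in ileum without the library labelled whole ileum pig 1. Ileum relative to blood was −0.23 ± 0.15 without CD2 and 1.01 ± 0.95 with CD2. The first of these was 0.24 among cells of at least 2500 UMIs, so no order between ileum and blood holds for SAMSN1 in TRDC+ CD2- cells. CD4 or CD8B+ CD2+ cells held 59.9 to 72.6 CPM in ileum and 20.8 and 29.6 CPM in blood, and CD3E- CD2+ cells 42.6 to 131 CPM. Myeloid cells, with 26.7 to 103 CPM, and B cells, with 11.7 to 32.5 CPM, also held the transcript.

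Among TRDC+ cells, GATA3 lay further apart between ileum and blood without CD2 than with it. Without CD2, TRDC+ cells held 57.1, 68.8 and 85.1 CPM in the lowest, median and highest ileal library and 292 and 472 CPM in blood. With CD2 they held 37.3, 43.7 and 54.6 CPM in ileum and 62.9 and 82.2 CPM in blood. The ileal gates lay next to each other without overlapping, and the blood gates lay far apart. In B cells it did not exceed 3.88 CPM.

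The log2 ratio of TRDC+ CD2- to TRDC+ CD2+ cells was 0.60 ± 0.16 (SD, n = 2) in ileum, 0.57 without the library labelled whole ileum pig 1, and 2.37 ± 0.22 in blood. Ileum relative to blood was −2.40 ± 0.57 in TRDC+ CD2- cells, a 5.26-fold lower level, and −0.63 ± 0.20 in TRDC+ CD2+ cells. In CD4 or CD8B+ CD2+ cells it was −0.27 ± 0.18. Tissue digestion of the ileal cells cannot be told apart from tissue in these values. The part that missed CD2+ cells have in the first of them was not tested. A GATA3 UMI was seen in 48.0% (42.4 to 53.6) and 61.9% (56.9 to 66.8) of blood TRDC+ CD2- cells and in 15.7 to 20.0% of ileal ones. CD4 or CD8B+ CD2+ cells held 31.7 to 40.3 CPM in ileum and 47.2 and 42.6 CPM in blood, and CD3E- CD2+ cells 50.6 to 75.7 CPM. The ileal TRDC+ CD2- cells thus overlapped with the CD3E- CD2+ cells in level.

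Among all CD3E+ cells, the CD2- to CD2+ ratio of GATA3 was 1.63 ± 0.80 (SD, n = 2) on the log2 scale in blood and −0.48 ± 0.0013 in ileum. The ileal ratio was 0.091 without cells carrying 2 or more B cell markers, so its negative sign was lost with those cells. In CD4 or CD8B+ cells without TRDC, where CD2 was also used to split the cells, the CD2- to CD2+ ratio was 0.090 ± 0.21 for GATA3 and 0.12 ± 0.19 for SAMSN1 in ileum. In blood it was −0.12 ± 0.081 and 0.18 ± 0.099. The distance between CD2- and CD2+ cells that the TRDC+ gates showed was thus smaller among αβ T cells for both genes, as a description. The αβ cells without a CD2 UMI may be missed CD2+ cells. Small ratios could then follow from the gates alone, so this comparison cannot decide whether the distance is particular to γδ T cells.

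SOX13 was nearly absent. It gave 3 UMIs in 22584 CD3E+ cells, 1 each in CD3E+ CD2+ cells of PP pig 1 and non-PP pig 2 and in CD3E+ CD2- cells of non-PP pig 1. No TRDC+ cell held one in any of the 8 libraries. A count of 0 allows up to 2.89 to 6.88 CPM per library in TRDC+ CD2- cells and 0.847 to 2.60 CPM in TRDC+ CD2+ cells, so a level of that size was not detectable at this depth. SOX13 did not pass the filter on low counts and entered no test, and the other 4 genes passed it.

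Within TRDC+ CD2- cells, SAMSN1, GATA3 and BLK, a Src family kinase of B cells and of some T cells, were concentrated in the cells with RHEX. Cells with a RHEX UMI held 340 to 615 CPM of SAMSN1, against 37.7 to 136 CPM in cells at 0, and were higher in 8 of 8 libraries. GATA3 was 104 to 230 CPM with RHEX and 14.1 to 52.2 CPM without it in ileum, and 443 and 553 CPM against 31.9 and 163 CPM in blood, again higher in 8 of 8 libraries. BLK was 392 to 588 CPM with RHEX and 1.65 to 158 CPM without it. The split uses a member and the cells of 1 library are not replicates, so these values carry no test. Cells at 0 for RHEX can include missed CD2+ cells and cells with B cell markers. The split may therefore separate kinds of cells, which was not tested.

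TRDC was higher beside RHEX in 8 of 8 libraries too, at 2493 to 3428 against 1821 to 2948 CPM. Median depth was higher in cells with RHEX in the ileal libraries (2483 to 3163 against 2237.5 to 2874 UMIs) and lower in blood (2050 and 2306.5 against 3369.5 and 2808). After thinning, SAMSN1 was seen in 34.5 to 55.8% of the cells with RHEX and 6.25 to 21.0% of those without, and GATA3 in 10.0 to 46.8% and 2.47 to 18.5%. Both stayed higher beside RHEX in 8 of 8 libraries after thinning. CCL5, a chemokine of cytotoxic and tissue T cells, was lower beside RHEX in 7 of 8 libraries and higher in whole ileum pig 2, at 6424 against 6070 CPM. ITGAE, the integrin that binds epithelium, was lower beside RHEX in 6 of 6 ileal libraries, at 62.1 to 252 against 128 to 447 CPM.

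**Figure D3:**
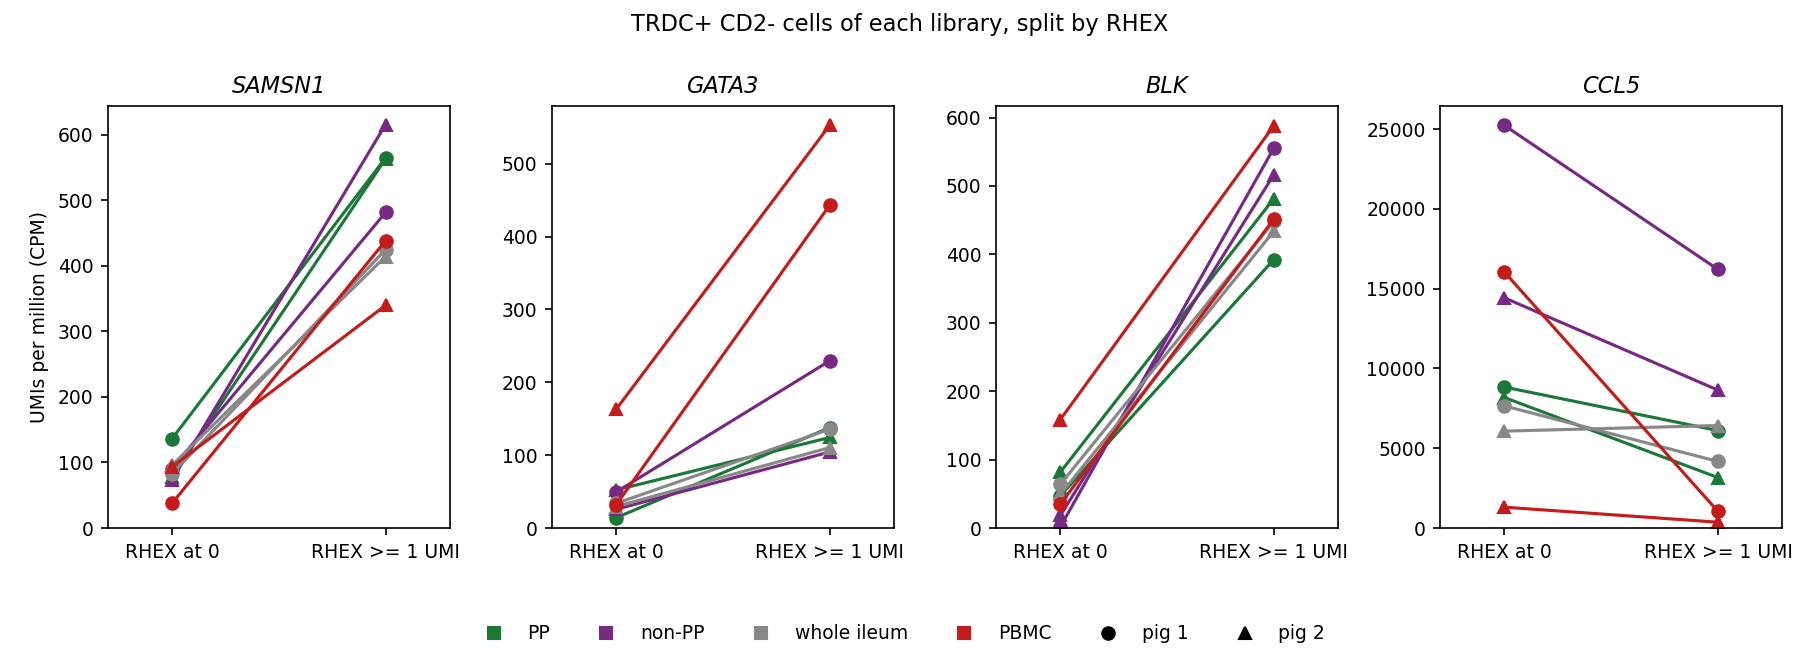
CPM of SAMSN1, GATA3, BLK and CCL5 in TRDC+ CD2- cells without and with a RHEX UMI (x axis), each line 1 library. SAMSN1, GATA3 and BLK are higher beside RHEX in 8 of 8 libraries, and CCL5 is lower in 7 of 8.

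A UMI of at least 1 of RHEX, SAMSN1 and GATA3 was found in 38.2 to 62.7% of ileal and 80.1 and 90.8% of blood TRDC+ CD2- cells. All 3 were found together in 3.05 to 13.3% and in 26.8 and 32.0%. At least 1 was also found in 31.1 to 45.4% of ileal TRDC+ CD2+ cells, which overlaps with the CD2- range, and in 41.5 and 45.9% of those of blood. Among TRDC+ CD2+ cells all 3 came together in 0.118 to 0.891% in ileum and 2.29 and 5.15% in blood.

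With CD2 and tissue held fixed, RHEX was also higher in γδ than in αβ T cells. The rule did not use this contrast, but that RHEX is a gene of γδ T cells was known from these data when it was chosen, so the test adds no independent evidence of that. TRDC+ CD2+ cells held 22.9 and 17.1 CPM of RHEX in ileum of pigs 1 and 2, against 0.953 and 0.812 CPM in CD4 or CD8B+ CD2+ cells. In blood they held 51.5 and 80.5 CPM against 1.02 and 1.80 CPM. A RHEX UMI was seen in 0.63 to 4.68% of ileal TRDC+ CD2+ cells, against 0.23 to 0.49% of the αβ cells. Blood shares were 7.52 and 11.6% against 0.54 and 1.01%. The αβ gate requires that no TRDC UMI was caught. A doublet with a TRDC+ CD2- cell can thus enter the TRDC+ CD2+ gate but not the αβ gate. The part of unscored doublets was not tested. On the log2 scale RHEX rose in TRDC+ cells by 4.42 (SE 0.37, adjusted p = 7.96e-05) in ileum and 5.35 (SE 0.37, adjusted p = 1.54e-05) in blood, by edgeR's quasi-likelihood test with Benjamini-Hochberg adjustment over 8906 genes. Of those genes 1.3% were called in ileum (0.82% higher and 0.483% lower) and 0.135% in blood (0.0898% and 0.0449%). With the pig as block the numbers called went from 73 higher and 43 lower to 258 and 177 in ileum, and from 8 and 4 to 26 and 9 in blood. The RHEX calls held in all alternatives run for these comparisons, with adjusted p up to 0.0431 in ileum and 0.0199 in blood, both after thinning before the gates.

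SAMSN1 and GATA3 did not pass this test. SAMSN1 was 95.5 and 92.8 CPM in TRDC+ CD2+ against 67.8 and 66.6 CPM in CD4 or CD8B+ CD2+ cells of ileum, 0.49 higher on the log2 scale (edgeR, SE 0.29, adjusted p = 0.705). In blood it was 29.8 and 73.6 against 20.8 and 29.6 CPM, a difference of 0.93 (SE 0.32, adjusted p = 0.815, edgeR), which was 0.91 with an adjusted p of 0.00878 when no filter on low counts was used. GATA3 differed by 0.32 (SE 0.22, adjusted p = 0.788) in ileum and 0.64 (SE 0.23, adjusted p = 0.816) in blood in the same edgeR fit. Both genes were on the higher side in TRDC+ cells of both pigs and tissues, by less than the test could separate.

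Of 120 tested genes in lists of T cell signalling, fate, circulation, residence, effector, cytokine, co-receptor and adaptor genes, 6 were higher and 12 lower in ileal TRDC+ CD2+ cells than in their αβ counterparts. KIT, the stem cell factor receptor, rose by 2.87 (SE 0.54, adjusted p = 0.0283), IKZF2 (Helios) by 1.66 (SE 0.29, adjusted p = 0.0173) and the CD3ζ chain gene CD247 by 1.40 (SE 0.24, adjusted p = 0.017), all by edgeR on the log2 scale. CTLA4, an inhibitory receptor of activated αβ T cells, fell by 2.60 on that scale (adjusted p = 0.000603, edgeR). CD4 and CD8B were lower by construction of the gates. In blood only BLK rose among listed genes, by 2.64 (SE 0.42, adjusted p = 0.026, edgeR), and GZMK, a granzyme, fell by 1.51 (adjusted p = 0.0257, edgeR). Leaving out either pig ended each of these calls except those of CD4 and CD8B, with edgeR adjusted p from 0.0964 for CTLA4 to 1 for KIT, and leaving out the library labelled whole ileum pig 1 ended those of KIT (0.115), IKZF2 (0.0677), BLK (0.0873) and GZMK (0.123). The blood call of BLK was also lost with doublets removed (0.064), after thinning (0.342) and with sums per library (0.853), and that of GZMK with sums per library (0.875).

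Between the dissections, TRDC and GATA3 were lower in PP than in non-PP among CD3E+ CD2- cells, and neither call was made without cells carrying 2 or more B cell markers. TRDC was 433 and 493 CPM in PP of pigs 1 and 2 against 1024 and 1210 CPM in non-PP, and fell by 1.32 on the log2 scale (SE 0.19, adjusted p = 0.00169). GATA3 was 25.4 and 26.7 against 43.4 and 48.1 CPM and fell by 0.86 (SE 0.16, adjusted p = 0.00446). These are adjusted p values of edgeR's quasi-likelihood test over 10312 genes, 23.3% of which were called, 967 (9.38%) higher and 1434 (13.9%) lower in PP, around a median log2 difference of −0.11. RHEX (88.3 and 141 against 125 and 188 CPM, adjusted p = 0.334) and SAMSN1 (105 and 97.8 against 95.7 and 152 CPM, adjusted p = 0.269) did not pass the edgeR test. Without pig 1 the edgeR adjusted p was 0.054 for TRDC and 0.129 for GATA3, and after thinning before the gates it was 0.39 for GATA3.

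Markers of other cells differed between PP and non-PP in the CD3E+ CD2- gate. The 5 B cell markers summed to 1194 and 1083 CPM in PP and to 46.2 and 55.2 CPM in non-PP, and 2 or more of them were seen in 47.1 and 35.3% of the PP cells and 0.857 and 2.61% of the non-PP cells. In TRDC+ CD2+ cells these shares were 12.9 and 8.61% in PP and 0.194 and 0% in non-PP. A different mix of cells, doublets and free RNA cannot be told apart by these markers. Antibody-secreting cell markers (4 genes) summed to 7204 and 6087 CPM in PP and 1505 and 3146 CPM in non-PP. Epithelial markers (5 genes) went the other way, at 426 and 211 CPM in PP and 1761 and 1266 CPM in non-PP, as did innate lymphoid or NK markers (6 genes), at 207 and 193 CPM against 1350 and 865 CPM. The part of these 3 lists in the result was not tested. Without the cells carrying 2 or more B cell markers, 55 genes were higher and 39 lower in PP. TRDC was then 946 and 942 against 1053 and 1281 CPM, which differ by −0.26 on the log2 scale (adjusted p = 0.637, edgeR), and GATA3 differed by 0.16 (adjusted p = 0.649, edgeR). RHEX was 205 and 265 against 128 and 199 CPM (log2 difference 0.58, adjusted p = 0.434, edgeR) and SAMSN1 203 and 168 against 97.97 and 156 CPM (0.60, adjusted p = 0.251, edgeR), both on the PP side in both pigs. This setting was chosen after the data had been seen.

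**Figure D4:**
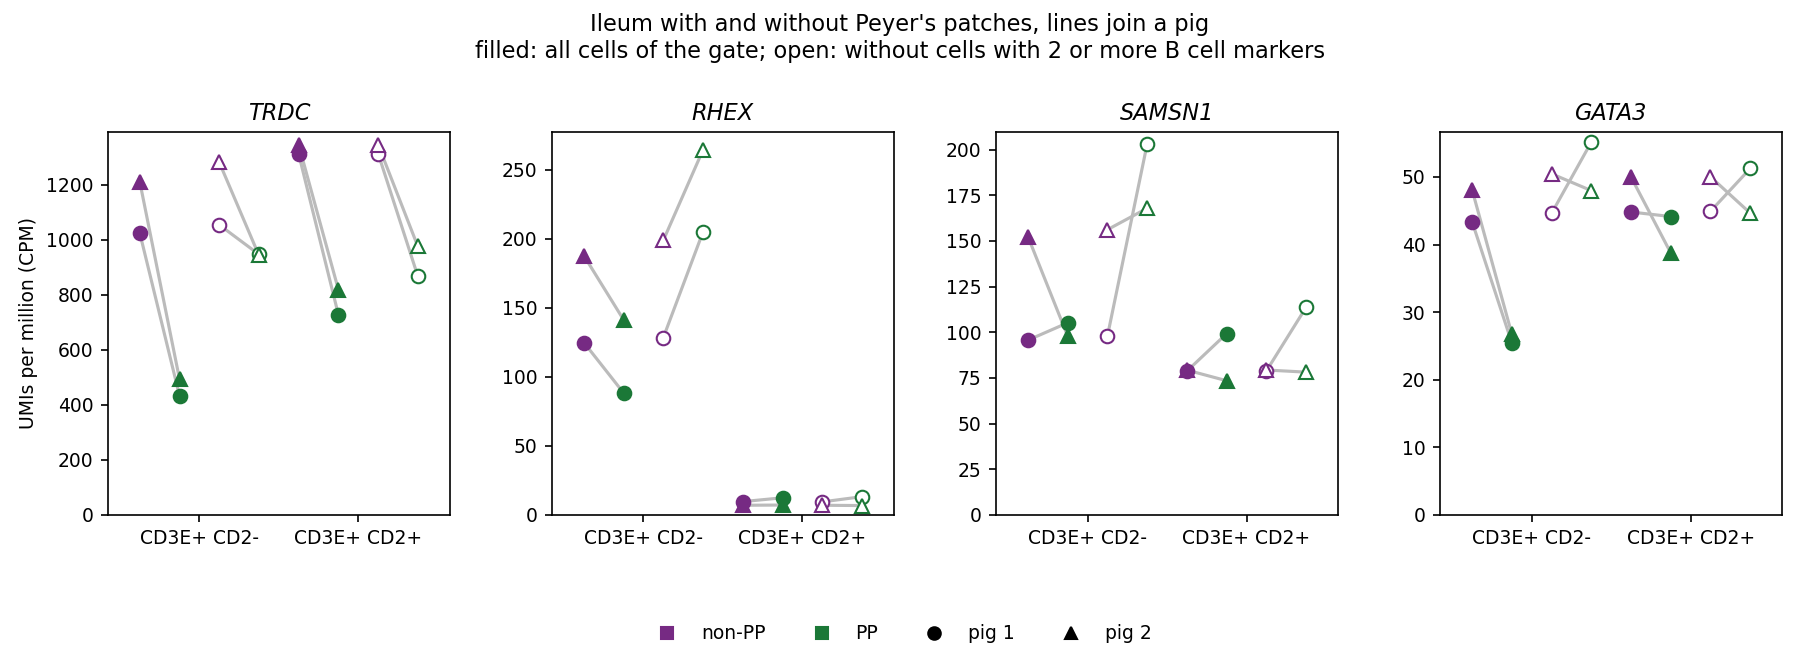
CPM of 4 genes in CD3E+ CD2- and CD3E+ CD2+ cells of non-PP and PP ileum, lines joining the libraries of 1 pig. Filled points hold all cells of the gate and open points leave out cells with 2 or more B cell markers. TRDC in CD3E+ CD2- cells of PP moves from 433 and 493 CPM to 946 and 942 CPM, and RHEX changes the side on which PP lies.

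Among CD3E+ CD2+ cells TRDC was 727 and 818 CPM in PP against 1311 and 1344 CPM in non-PP. It fell by 0.78 on the log2 scale (SE 0.19, adjusted p = 0.0425, edgeR), where 5.11% of genes were called, 3.28% higher and 1.83% lower (189 lower, and 416 with the pig as block). That call was lost without the library labelled whole ileum pig 1 (adjusted p = 0.0616), with doublets removed (0.0803), without either pig (0.406 without pig 1 and 0.185 without pig 2) and without cells carrying 2 or more B cell markers (0.429), all by edgeR. RHEX, SAMSN1 and GATA3 did not pass in this gate, with adjusted p of 0.806, 0.798 and 0.512. The dissection difference itself was not shown to differ between the CD2 gates for any of the 4 genes, with adjusted p from 0.333 for GATA3 to 0.658 for RHEX (edgeR, added after the data had been seen).

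Around the 5 genes, the listed genes that moved with CD2 in the same TRDC+ cells were few in ileum. In TRDC+ CD2- relative to TRDC+ CD2+ cells of ileum, 0.202% of 8906 genes were called (0.18% higher and 0.0225% lower, 16 and 2 genes, against 192 and 51 with the pig as block), and 3 of 120 listed genes rose and none fell. BLK was 160 and 225 CPM without CD2 against 21.8 and 24.4 CPM with it and rose by 3.09 on the log2 scale (SE 0.34, adjusted p = 0.00153). MAF, a transcription factor of effector T cells, was 38.01 and 33.9 against 11.97 and 7.49 CPM and rose by 1.89 (SE 0.32, adjusted p = 0.0372). KLF2, which keeps lymphocytes in circulation, was 49.1 and 55.4 against 16.6 and 15.1 CPM and rose by 1.74 (SE 0.17, adjusted p = 0.000545). These are edgeR values. No listed gene fell in the edgeR fit, where 288 of all genes were lower at an unadjusted p under 0.05, 2 were called lower and DESeq2 called 11. The calls rest on both pigs: the adjusted p of BLK was 0.0904 without pig 1 and 0.169 without pig 2, that of MAF 0.37 and 0.889, and that of KLF2 0.112 without pig 2. MAF was also lost without the library labelled whole ileum pig 1 (0.13) and after thinning before the gates (1), and KLF2 after thinning (0.0955) and with sums per library (0.111).

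In blood 1.77% of genes were called (1.17% higher and 0.606% lower, 104 and 54 genes, against 274 and 254 with the pig as block), and 5 listed genes rose and 4 fell without CD2. BLK was 298 and 499 against 28.2 and 47.6 CPM and rose by 3.47 (SE 0.36, adjusted p = 0.000827), and MAF was 51.2 and 97.2 against 8.14 and 7.79 CPM and rose by 3.26 (SE 0.38, adjusted p = 0.00145, edgeR). AHR, the aryl hydrocarbon receptor, rose by 2.40, IL18R1, a receptor chain for interleukin 18, by 2.24, and ZAP70, the kinase of the T cell receptor complex, by 1.04. The kinase LCK, which works beside ZAP70, fell by 1.72, the adhesion receptor CD6 by 1.96 and the co-receptor chain CD8B by 2.60. GZMK gave 3 UMIs without CD2, a level 17.6-fold lower than with CD2 (counting interval 5.80 to 87.1). Among these, AHR was lost without either pig (adjusted p = 0.152 and 0.0934, edgeR), IL18R1 without pig 1 (0.0554), and ZAP70, CD8B and CD6 without pig 2 (0.0909, 0.053 and 0.29). CD6 was also lost without the library labelled whole ileum pig 1 (0.0532), which enters the same fit, and ZAP70 with sums per library (0.0677). After thinning before the gates, BLK was still called and the other 8 were not, with edgeR adjusted p from 0.0643 for LCK to 0.932 for GZMK.

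Among the kinases that start T cell receptor signalling, the calls gave more BLK and ZAP70 and less LCK in CD2- cells of blood, and more BLK in those of ileum. LCK was lower without CD2 in ileum too, at 284 and 274 against 573 and 563 CPM, but was not called (adjusted p = 0.152, edgeR). ZAP70 differed by −0.12 there (adjusted p = 0.951, edgeR). BLK and MAF were the listed genes called in both tissues. The difference between the tissues in the CD2 effect was tested for the listed genes, and none of 120 was called by edgeR. Over 8906 genes 0.0112% were called, 1 lower and 0 (0%) higher, with 442 and 476 at an unadjusted p under 0.05 40 and 43 called by DESeq2, and 58 and 68 called by edgeR with the pig as block. The 1 gene was ITM2B, which encodes a membrane protein and was named after its values were seen. Its CD2 difference was lower in ileum than in blood by 1.69 on the log2 scale (SE 0.20, adjusted p = 0.0123, edgeR). That call was lost without either pig, after thinning before the gates and without cells carrying 2 or more B cell markers, where 0 genes were called lower by edgeR.

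The ileal and the blood γδ T cells differed far more, in both CD2 gates. Without CD2, 12.9% of genes were called (7.14% higher and 5.75% lower, the latter 512 genes, against 775 with the pig as block), and 35 of 120 listed genes rose and 23 fell in ileum relative to blood. With CD2, 14.1% were called (7.32% higher and 6.75% lower, 652 and 601 genes, against 1098 and 1063 with the pig as block), with 30 listed genes higher and 22 lower. The median log2 difference of the 12 tested circulation genes was −1.68 in both gates, and that of the 12 residence genes 2.35 and 2.56, beside medians of 0.022 and 0.0051 over all genes. The lists were chosen with earlier results of these data known, so the counts and medians of listed genes were in part built in. Markers of other cells differed between the tissues too: in TRDC+ CD2- cells the antibody-secreting cell markers summed to 162 to 9729 CPM in ileum and 169 and 69.3 CPM in blood, and the epithelial markers to 7.09 to 1003 CPM and 1.07 and 0.962 CPM. With CD2 the sums were 146 to 3321 against 421 and 74.4 CPM, and 6.60 to 215 CPM against 0. Their part in the result was not tested.

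Of the circulation genes 6 fell and 1 rose in ileum without CD2, and 7 fell and 1 rose with CD2. KLF2 was 49.1 and 55.4 CPM in ileal against 534 and 575 CPM in blood TRDC+ CD2- cells and fell by 3.41 on the log2 scale (SE 0.17, adjusted p = 2.71e-07), and with CD2 it fell by 4.70 (SE 0.18, adjusted p = 1.09e-08, edgeR). S1PR1, the receptor by which lymphocytes leave tissue, was 20.6 and 15.5 against 178 and 189 CPM and fell by 3.34 without CD2, and the chemokine receptor CCR2 fell by 3.27. S1PR5 gave no UMI in ileal TRDC+ CD2- cells and was at least 24.1-fold lower there than in blood (floor of 3 counts over the group). With CD2 it gave 3 UMIs in ileum, a 254-fold lower level (counting interval 85.4 to 1243). The gene that rose in both gates was CXCR4, a chemokine receptor, by 4.39 and 3.16. It was named after its values were seen.

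Of the residence genes 7 rose in each gate, 2 fell without CD2 and 0 with CD2. CXCR6, a receptor of tissue T cells, gave no UMI in blood TRDC+ CD2- cells and was at least 5.72-fold higher in ileum. RGS1, a regulator of chemokine signalling, was 1371 and 1281 CPM in ileal against 39.6 and 26.8 CPM in blood TRDC+ CD2+ cells and rose by 5.32 (SE 0.21, adjusted p = 1.09e-08, edgeR). The residence genes that fell without CD2 were AHR, by 1.49, and ITGB7, by 0.92, both named after their values were seen.

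Of 16 cytokine and cytokine receptor genes, 6 rose and 2 fell in ileum without CD2, and 6 rose and 1 fell with CD2. Of 19 cytotoxic and NK receptor genes, 6 rose and 2 fell without CD2, and 4 rose and 3 fell with CD2. IL22, a cytokine that acts on epithelium, was 28.0 and 69.7 CPM in ileal TRDC+ CD2- and 36.6 and 20.7 CPM in TRDC+ CD2+ cells and gave no UMI in blood, so it was at least 31.4-fold and at least 29.7-fold higher in ileum. IL26, a related cytokine that rodents lack, was 145 and 57.1 CPM in ileal TRDC+ CD2- cells and 102-fold higher than in blood (counting interval 28.1 to 848). With CD2 it was 71.7-fold higher (12.8 to 2839), at 32.6 and 12.4 CPM in ileum. Ileal CD4 or CD8B+ CD2+ cells held 57.3 and 33.7 CPM of IL22 and 35.1 and 11.8 CPM of IL26. Neither transcript was thus confined to TRDC+ cells in ileum. The granzyme gene GZMA_ENSSSCG00000016902 rose by 8.75 without CD2 and 5.86 with CD2. The name GZMA also stands on ENSSSCG00000016903, so the counts of both are uncertain. ENSSSCG00000016903 rose by only 2.60 without CD2 (adjusted p = 0.0165, edgeR). In blood TRDC+ CD2- cells it held 262 and 61.6 CPM, against 7.46 and 0.962 CPM of ENSSSCG00000016902, so GZMA was not absent from blood. CTLA4 gave 13 UMIs in ileal TRDC+ CD2- cells and none in blood, at least 2.40-fold higher.

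Other listed genes fell. KLRG1, an inhibitory receptor of effector cells, fell by 3.23 in TRDC+ CD2- cells. With CD2 the transcription factors EOMES and ZEB2 fell by 4.14 and 4.02 and the natural cytotoxicity receptor NCR1 by 4.02, while EGR1, an early response gene, was 35.0-fold higher in ileum (9.62 to 291). Of the 14 genes of the T cell receptor complex and its signalling, 4 rose in ileum without CD2 and 3 fell. CD6 rose by 2.12, LCK by 1.16 and the receptor chains CD3D by 0.73 and CD3G by 0.53, while BLK itself was lower in ileum than in blood without CD2, by 1.05, as were TXK by 1.49 and ZAP70 by 0.94, all 7 named here after their values were seen. Ileal cells were isolated by tissue digestion and blood cells were not, and this cannot be told apart from the tissue. In blood, LCK and CD6 were the genes lower without CD2, and BLK and ZAP70 were higher. A larger part of missed CD2+ cells in the ileal TRDC+ CD2- gate therefore cannot be told apart from the changes of LCK, CD6, BLK and ZAP70 given here. Leaving out a pig ended the calls of IL22, CXCR6, CTLA4 and CCR2 in TRDC+ CD2- cells in both cases, and those of IL26 (adjusted p = 0.0539), S1PR5 (0.247) and KLRG1 (0.15) without pig 1, by edgeR. With CD2 it ended those of IL22, IL26, EGR1 and NCR1 in both cases, and NCR1 was also lost without the library labelled whole ileum pig 1 (0.0793) and with doublets removed (0.0598). After thinning before the gates the calls of CTLA4 (0.137) and CCR2 (0.0504) were lost without CD2, and those of IL22 (0.333), IL26 (0.213) and EGR1 (0.125) with CD2, and CTLA4 without CD2 was lost with sums per library (0.126). Those of KLF2, S1PR1, RGS1 and GZMA_ENSSSCG00000016902 held without either pig.

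**Figure D5:**
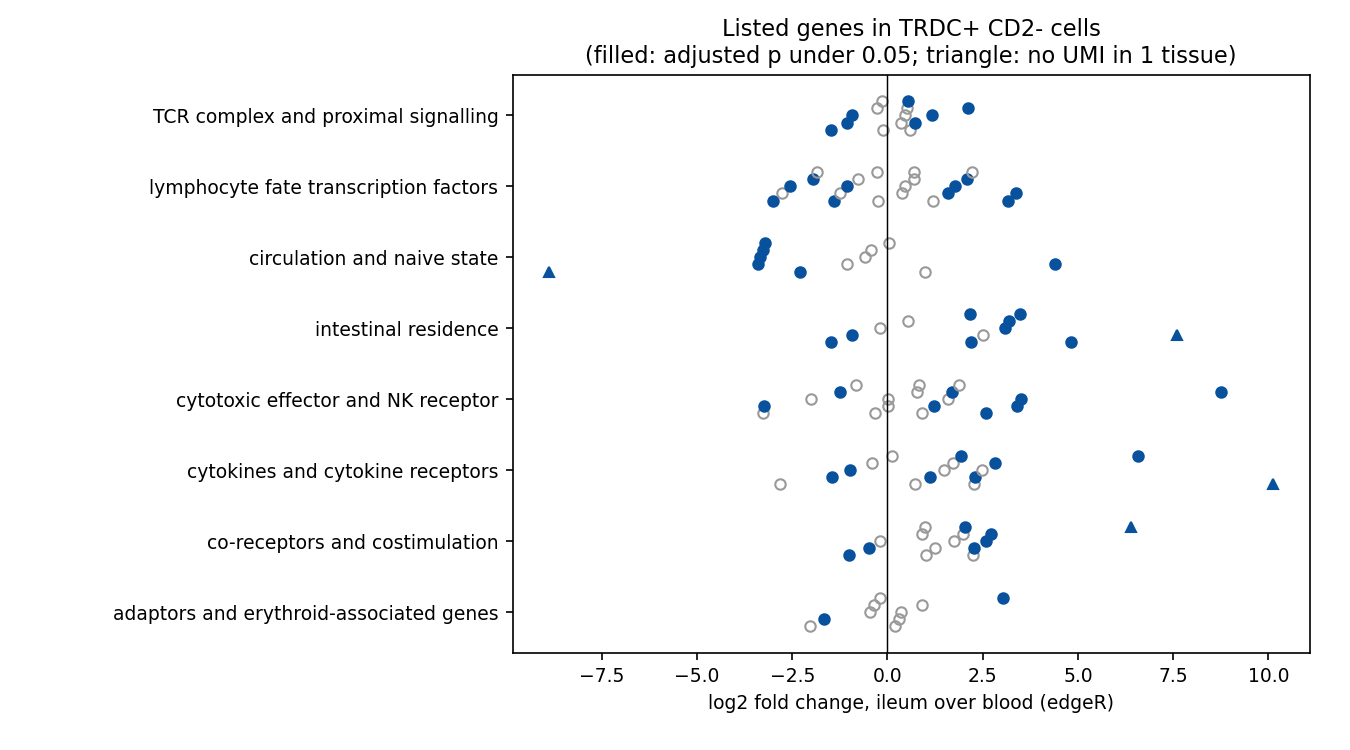
Log2 fold change of ileum over blood (x axis, edgeR) for each tested listed gene in TRDC+ CD2- cells, by list. Filled points passed an adjusted p of 0.05, and triangles had no UMI in 1 tissue, where the fold is no bound. The circulation genes lie mostly to the left, with 6 lower and 1 higher, and the residence genes to the right, with 7 higher and 2 lower. The lists were chosen with earlier results of these data known.

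Across the 16 sums of the 4 gates, 2 tissues and 2 pigs, Pearson's r of log2(CPM + 1) was used to find the genes whose pattern was most like that of each member, as a description over sums that share libraries. For RHEX these were ENSSSCG00000032017, a gene with no symbol in the files (r = 0.975), the interleukin 9 receptor gene IL9R (r = 0.957) and the unnamed ENSSSCG00000034914 (r = 0.957). For SAMSN1 they included PDGFA (r = 0.932) and SRGN (r = 0.913), and for GATA3 the unnamed ENSSSCG00000001979 (r = 0.975), DPPA5 (r = 0.974) and RRAGD (r = 0.961). TRDC, which is 0 in the αβ gates by construction, was most like 2 unnamed genes (r = 0.932 and 0.917) and SEPT11 (r = 0.907). Between members, r was 0.83 for RHEX and SAMSN1, 0.81 for RHEX and GATA3 and 0.66 for SAMSN1 and GATA3. The members were chosen on the CD2 and tissue contrasts that these sums hold, so their likeness to each other was in part built in.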

How the data were processed

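Single-cell libraries were made with the 10x Chromium 3' v2 chemistry, 8 in all, each sequenced in 4 runs that the 32 labelled samples list separately and that were counted as 1 library. Reads were assigned by the authors with Cell Ranger to genes of Sscrofa11.1 with a modified Ensembl annotation, and they deposited raw UMI counts of every barcode, from before their removal of ambient RNA, poor cells and doublets. The quality limits given above were applied to these counts. No ambient correction was made, so free RNA remains in the values. Doublets were scored with Scrublet in scanpy 1.11.5 (expected rate 0.07, score above 0.25) and kept in the main values.

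Of the 25880 rows, 977 took their symbol from a name table supplied with the data and 7170 had none. The 146 rows of the gene lists gave 120 tested genes. UMIs were summed per pig, tissue and gate (16 sums), or per ileal library and CD2 gate (12 sums), and tested with edgeR 4.0.16 in R 4.3.3 (filterByExpr, TMM, glmQLFit, glmQLFTest), 1 fit each, with Benjamini-Hochberg adjustment over all genes tested and calls at 0.05. Each group has 2 sums, and the spread was pooled over all groups of a fit. Each pig is 1 replicate. The labels give same-numbered libraries to the same animal, which the Y-linked counts go against for the library labelled whole ileum pig 1, so a block by pig number rests on the labels. CPM of members is UMIs of the gene over all UMIs of the gate, and log2 ratios were taken per pig and averaged. In simulated counts of the ileal CD2 comparison, 30% of genes changed 2-fold and 87% of those changed 4-fold were recovered. In the PP comparison of CD3E+ CD2- cells the shares were 25 and 72%. False calls numbered 12 among 8906 genes in the first comparison, which was 9.30% of its calls and above the threshold of 0.05. They numbered 3 among 10312 genes in the second, which was 3% of its calls. Each simulation changed 100 genes 2-fold and 100 genes 4-fold. The data gave 18 calls in the ileal CD2 comparison, so the false share among those calls may differ. A floor is 3 counts, and intervals cover 95%.

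The members and the gene lists were chosen with earlier results of these data known. Named besides the members were the called listed genes with the largest change, up to 5 higher and 5 lower for CD2 and tissue and up to 3 and 3 for γδ against αβ T cells, and the 3 genes most like each member, 1 of which is not reported here. Alternatives were the pig as block, RLE factors, no filter, DESeq2 1.42.0, leaving out each pig, leaving out the library labelled whole ileum pig 1, doublets removed, thinning, sums per library and cells of at least 2500 UMIs. Removal of cells with 2 or more B cell markers, the ratios without each pig, and the test of the dissection difference between CD2 gates were added after the data had been seen. No sequences are shown. Each matrix was matched to its library by the name in the sample descriptions.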

Additional observations from a re-analysis of the deposited data

Results flagged for a closer look

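Dixon's test marks a library whose gap to its nearest neighbour takes up most of the range of its group. Applied to the 6 ileal libraries, which mix 3 dissections and 2 pigs, it marked 6 values, and chance marks about 1 in 20 groups. RHEX was seen in 16.03% of TRDC+ CD2- cells of non-PP pig 1, far under the next lowest library at 37.0%. RHEX stood at 45.2 CPM in TRDC+ CD2+ cells of PP pig 1, the highest ileal value. SAMSN1 was also high in that library, at 140 CPM and 33.0% of TRDC+ CD2+ cells and 26.1% of CD3E+ CD2+ cells. In CD3E+ CD2- cells SAMSN1 was highest in non-PP pig 2, at 152 CPM.

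Differences of differences between tissues or gates follow, each in log2 units. In both pigs, with all UMIs, TRDC went one way with CD2 in ileum and the other way in blood, by −2.67 among CD3E+ cells (ileal ratio minus blood ratio) and by −0.90 among TRDC+ cells. With gates on thinned counts the blood ratio among TRDC+ cells was −0.079, so the opposite directions did not hold there. Put as ileum over blood, CD3E+ CD2- minus CD3E+ CD2+ cells gave the same −2.67. GATA3 among CD3E+ cells gave −2.11 (ileal minus blood CD2 ratio). SAMSN1, as ileum over blood, gave −1.24 (TRDC+ CD2- minus TRDC+ CD2+). These were not tested, since the genes were chosen on these contrasts. RHEX moved in opposite directions between PP and non-PP in the 2 CD2 gates, by −0.71, and here the test of the difference did not pass (adjusted p = 0.658, edgeR). With gates on thinned counts, or without cells carrying 2 or more B cell markers, RHEX in CD3E+ CD2- cells was on the PP side (0.55 and 0.58), so the directions were no longer opposite.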

How the results depend on the processing

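All 42 results for named listed genes kept their direction in the 460 alternatives run, and 14 of them stayed past the threshold in each. Of the 42 calls, 16 were lost with gates on thinned counts, 5 with sums per library, 2 with doublets removed, 7 without the library labelled whole ileum pig 1 and 21 without each pig in turn. Of the alternatives run, 87 counts of called genes stayed within 1.5 times the reported count and 107 did not. In 170 alternatives the members' log2 ratios moved by less than the spread between pigs, in 43 by more, and in 11 the sign turned. With n = 2, leaving out a pig cannot move a ratio past that spread. Those settings are among the alternatives counted, and only a turned sign could mark them. The cause was not tested where none is given.

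The labels give same-numbered libraries to the same pig, so the pig was fitted as a replicate block. The Y-linked counts go against that label for the library labelled whole ileum pig 1, and the block was not run without it. In the ileal CD2 comparison the block called 192 genes higher and 51 lower (reported: 16 and 2), in blood 274 and 254 (104 and 54). For ileum over blood it called 775 lower without CD2 (512), and 1098 higher and 1063 lower with CD2 (652 and 601). For γδ against αβ T cells it called 258 and 177 in ileum (73 and 43) and 26 and 9 in blood (8 and 4). It called 68 and 58 for the CD2 difference between tissues (0 and 1) and 416 lower in PP among CD2+ cells (189). The block changed no call of a named gene or member.

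Without the filter on low counts the numbers of genes higher and lower were 333 and 97 (CD2, ileum), 267 and 344 (CD2, blood), 306 and 196 (γδ against αβ, ileum), 109 and 50 (γδ against αβ, blood), 206 and 73 (CD2 difference between tissues), and 727 and 607 (PP, CD2+). Higher in ileum than blood were 1027 without and 998 with CD2. SAMSN1 in γδ against αβ T cells of blood then passed, at 0.91. DESeq2 called 60 and 11 (CD2, ileum), 171 and 114 (CD2, blood), 112 and 73 (γδ against αβ, ileum), 26 higher (blood), and 43 and 40 (CD2 difference). Sums per library called 40 and 12, 60 and 26, 187 and 131 (γδ against αβ, ileum), and 1 and 5 (CD2 difference). Size factors by RLE moved no count past 1.5 times.

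Leaving out 1 pig at a time, with the lone sample assumed to vary like the other groups, gave 1 to 2 higher and 1 lower (CD2, ileum), 33 to 34 and 8 to 33 (CD2, blood), 164 to 218 and 125 to 158 (ileum over blood, CD2-), 157 to 273 and 181 to 187 (CD2+), 2 to 4 and 3 (γδ against αβ, ileum), 3 to 10 and 2 to 3 (blood), 0 to 1 and 0 (CD2 difference), 212 to 527 and 166 to 751 (PP, CD2-), and 81 to 139 and 8 to 16 (PP, CD2+). The PP differences ranged from −1.37 to −1.18 for TRDC, −0.90 to −0.73 for GATA3 and −0.52 to 0.0094 for SAMSN1 in CD2- cells, and from −0.91 to −0.62 for TRDC and −0.016 to 0.27 for SAMSN1 in CD2+ cells. The SAMSN1 ratio of ileum over blood in CD3E+ CD2- cells ranged from −0.54 to 0.016. Without the library labelled whole ileum pig 1 the counts were 6 and 1 (CD2, ileum), 55 and 23 (CD2, blood), 22 and 20 (γδ against αβ, ileum), 2 lower (blood), and 941 and 87 lower in PP without and with CD2. TRDC in PP CD2+ cells was −0.77. The ratios that moved were TRDC in TRDC+ cells of ileum (−0.33), RHEX (−0.28) and GATA3 (−0.21) for ileum over blood in CD3E+ CD2+ cells, and GATA3 with CD2 in ileal CD3E+ cells (−0.48).

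With doublets removed, PP CD2+ cells gave 220 higher and 116 lower, TRDC there was −0.70, the blood CD2 ratio of RHEX in TRDC+ cells was 4.92, GATA3 in ileal CD3E+ cells was −0.48, and RHEX for ileum over blood in CD3E+ CD2+ cells turned to 0.090. With gates on counts thinned to the lowest number of UMIs a cell may have, which drops UMIs, the counts were 8 and 1 (CD2, ileum), 7 and 3 (CD2, blood), 264 and 260 (ileum over blood, CD2+), 67 lower (γδ against αβ, ileum), 16 higher (blood), 0 lower (CD2 difference), 366 and 289 (PP, CD2-), and 204 and 110 (PP, CD2+). In PP CD2- cells RHEX turned to 0.55 and SAMSN1 to 0.38, and GATA3 was −0.24. The thinned CD2 ratios in TRDC+ cells were −0.23 and −0.079 for TRDC, 3.78 for RHEX in ileum, 0.94 and 1.45 for SAMSN1, and 0.31 for GATA3 in ileum. Thinned ileum over blood was 0.46 and 0.61 for TRDC (TRDC+ CD2- and CD2+), −1.87 for RHEX (TRDC+ CD2-) and −0.42 for GATA3 (TRDC+ CD2+). Among CD3E+ cells the thinned CD2 ratios were −0.16 for TRDC and −0.20 for GATA3 in ileum, and 4.12 for RHEX and 0.83 for SAMSN1 in blood. Ileum over blood was 1.11, −1.18, 0.62 and −1.30 for TRDC, RHEX, SAMSN1 and GATA3 without CD2, and 1.05 for SAMSN1 with CD2.

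In cells of at least 2500 UMIs the CD2 ratios in TRDC+ cells were −0.45 and 0.24 for TRDC, and in blood 3.66 for RHEX and 1.75 for GATA3. Ileum over blood in TRDC+ CD2- cells was 0.24 for TRDC, −0.87 for RHEX and 0.24 for SAMSN1, the last with its sign turned. Among CD3E+ cells the CD2 ratios were −0.97 for TRDC and −0.71 for GATA3 in ileum, and 4.42 for RHEX and 1.51 for SAMSN1 in blood. Ileum over blood was 0.084, −1.02 and 0.25 for TRDC, RHEX and SAMSN1 without CD2, and −0.35 for GATA3 with CD2. Without cells carrying 2 or more B cell markers, added after the data had been seen, PP gave 55 and 39 calls in CD2- and 96 and 48 in CD2+ cells, the CD2 difference between tissues gave 0 lower, and in CD2- cells TRDC was −0.26, GATA3 turned to 0.16, RHEX to 0.58 and SAMSN1 to 0.60. In CD2+ cells TRDC was −0.49 and GATA3 turned to 0.047. The CD2 ratios in ileal TRDC+ cells were −0.23 for TRDC and 1.58 for SAMSN1, and in ileal CD3E+ cells −0.15, 4.76, 0.82 and 0.091 for TRDC, RHEX, SAMSN1 and GATA3. The blood ratio of SAMSN1 was 2.17. Ileum over blood was 0.21 for TRDC in TRDC+ CD2- cells, 0.15, −1.19 and 0.14 for TRDC, RHEX and SAMSN1 in CD3E+ CD2- cells, and −0.14 for GATA3 in CD3E+ CD2+ cells.

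With 2 pigs a group, the smallest gates (135 to 381 TRDC+ CD2- cells a library) limit low genes most. CD2, TRDC and CD3E gates rest on single UMIs, so a shallow cell can fall in the wrong gate, and the ileal sums are weighted by how many cells each dissection gave.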
